A study of Lactuca sativa with 36 samples.

Results

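The comparison covers 6 of 36 RNA-seq libraries: roots of Italian lettuce (Lactuca sativa) pretreated with melatonin, sampled after 1 day of cadmium (RCdM1, 3 libraries) and after 5 days (RCdM5, 3 libraries). The values were levels per isoform in FPKM (fragments counted per length of transcript and per size of library), and isoforms were summed per gene. In RCdM5 against RCdM1, 121 of 17227 tested genes passed the test (0.702%). Of these, 103 were higher on day 5 (0.598% of the tested genes) and 18 were lower (0.104%). The genes that rose included 3 metal ion transport genes, 3 peroxidase genes, a laccase and a lipid transfer protein gene. Of 87 tested genes that the study had called in some comparison and listed under metal ion binding, 3 rose and 1 fell. An iron homeostasis gene fell.

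All plants were grown on nutrient solution for 20 days before CdCl2 at 50 μmol/L was given, and the melatonin groups also received melatonin at 1 μmol/L. The label of RCdM1 replicate 2 gives 21 days in place of 20. The groups set beside RCdM1 and RCdM5 were the melatonin-pretreated roots of day 0 (RCdM0), the roots under cadmium without melatonin of day 1 and day 5 (RCd1, RCd5) and the melatonin-pretreated leaves of the same days (LCdM1, LCdM5), with 3 libraries each. All of them were assigned to the CdCl2 treatment, and no group kept without CdCl2 to day 1 or day 5 was analysed here, so time under cadmium cannot be told apart from plant age and day of harvest. According to the study, the libraries of each group come from separate biological repeats, and every p below measures the spread between such libraries. In whole roots, fewer cells of a type and less RNA per cell cannot be told apart.

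Melatonin is an indoleamine that plants make from tryptophan, and it acts as an antioxidant and as a signal in stress responses. Cadmium has no known nutritional role in plants. It enters roots through carriers of iron, zinc, manganese and calcium, binds thiols and raises reactive oxygen species. Superoxide dismutases turn superoxide into hydrogen peroxide, which peroxidases then consume. Class III peroxidases and laccases are secreted enzymes that oxidise monolignols to lignin in the cell wall, and lignified and suberised walls restrict the flow of ions across the root.

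The 3 libraries of RCdM1 correlated at Pearson r of 0.954 to 0.967 over the tested genes and those of RCdM5 at 0.937 to 0.961, while pairs across the days gave 0.913 to 0.959. RCdM5 replicate 3 stood apart from the rest in several groups of genes below, and values without it are given beside the main results of that kind. RCd5 replicate 3, from roots without melatonin, stood apart in the opposite direction in some of these groups, though not in calcium ion binding. The mean log2(FPKM + 1) level of 16 tested antenna genes was 4.0, 3.85 and 2.69 in RCdM5 and 2.95, 2.5 and 4.65 in RCd5. For 9 chitinase genes it was 6.11, 6.76 and 5.44 in RCdM5 and 5.39, 5.69 and 6.6 in RCd5. Whether these libraries carry the right labels was not tested. In the study's sequencing summary, the number of clean reads and the share of bases at quality Q30 were lower in every RCdM5 library than in every RCdM1 library. Read quality and day therefore moved together. As a check of the tissue, 17 genes of the light-harvesting antenna summed to 145.0 to 190.0 FPKM in RCdM1 and 146.0 to 365.0 in RCdM5, against 88351 to 107086 in the leaf libraries LCdM1. The root sums were 0.146% to 0.368% of the LCdM1 level. For 27 genes of the photosynthesis list they were 0.417% to 0.919%. None of the 16 antenna and 25 photosynthesis genes tested in roots passed the test, although 5 antenna genes were higher at an unadjusted p under 0.05. None of these marker genes was at 0 in all 6 libraries, and their part in the results was not tested.

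The genes that rose did so by 0.62 to 3.92 on the log2(FPKM + 1) scale, with a median of 1.56, and 85 of the 103 gained over 1 on that scale. Their median level went from 14.6 FPKM in RCdM1 to 55.1 FPKM in RCdM5. The genes that fell changed by -3.62 to -0.76, with a median of -1.22 and a median level of 14.9 FPKM on day 1 and 4.81 FPKM on day 5. The median over all tested genes was 0.03. The day 5 libraries lay above all day 1 libraries for each of the 103 genes that rose, and below them for each of the 18 that fell. Across all tested genes, 11.8% were without overlap in the first way and 6.6% in the second. Only 36 of the 121 genes carry a name or a term in the tables used here, 29 that rose and 7 that fell, and 19 are new genes defined by the long reads of the study. At an unadjusted p under 0.05 there were 2328 genes (13.5%).

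The number of genes past the threshold depended on single libraries and on the spread used. Without RCdM1 replicate 1, 2 or 3, 26, 5 or 28 genes passed, and without RCdM5 replicate 1, 2 or 3, 33, 88 or 11. A fit of RCdM1 and RCdM5 alone passed 4 genes, and a fit with Q30 as a covariate passed 1. With Q30 in the fit, all 121 genes kept their direction, the median absolute change went from 1.54 to 1.38 and its median standard error from 0.29 to 0.35. The 103 genes that rose were higher on day 5 under every alternative run on genes. Since the groups of each gene do not overlap, leaving out a library or changing the pseudocount or filter could not reverse this. The single gene called with Q30 in the fit was Lsat_1_v5_gn_7_66720, for which the tables give no term. It is named because it was called in the most settings, 11 of 12, and so was chosen after its values were seen. It stood at 1.82, 1.75 and 2.45 FPKM in RCdM1 and at 10.5, 8.5 and 11.5 FPKM in RCdM5, without overlap, a log2 change of 1.89 ± 0.18 (SE, limma adjusted p = 0.00071). Its RCdM0 libraries held 9.21, 8.73 and 8.52 FPKM, so the day 5 level was close to that of day 0 and the day 1 level was the low one. The plot of calls by setting shows these counts.

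**Figure D1:**
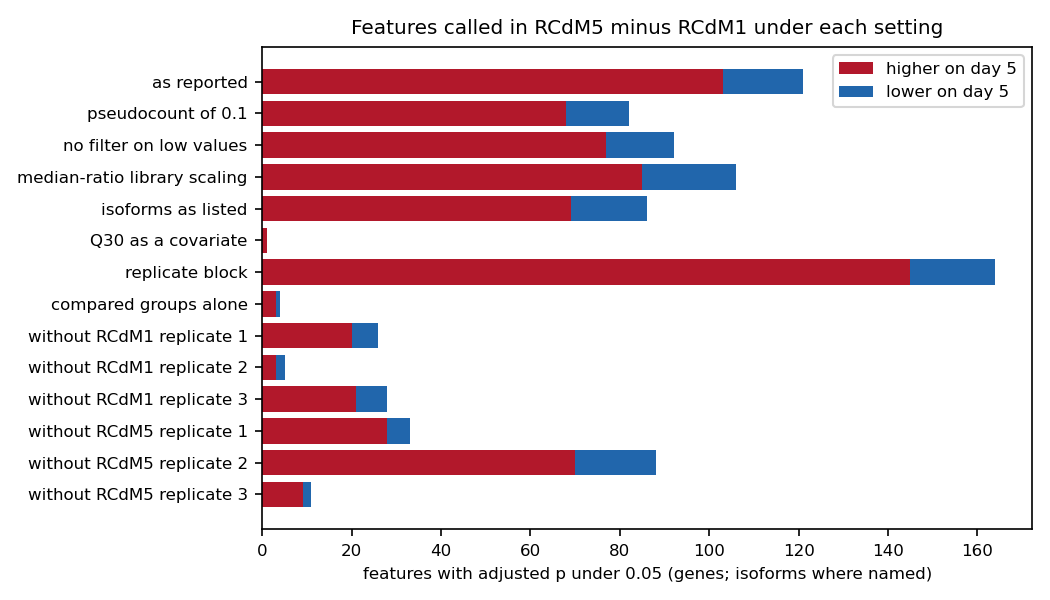
Number of features with a Benjamini-Hochberg adjusted p under 0.05 in RCdM5 minus RCdM1 (horizontal axis) under each setting (vertical axis), red for higher and blue for lower on day 5. The count as reported is 121, a fit of the compared groups alone gives 4 and the Q30 covariate gives 1.

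Of 34 tested metal ion transport genes, 3 rose and none fell, with 7 at an unadjusted p under 0.05, all higher on day 5. This list holds only genes that the study had called in some comparison of these libraries. Its counts are therefore not rates for all genes of that function. The median change of the 34 genes was 0.19, against 0.03 over all genes. The largest change in the list was in Lsat_1_v5_gn_4_44480, annotated as a metal ion transmembrane transporter. It was at 0.291, 0.474 and 1.71 FPKM in RCdM1 and at 10.2, 10.7 and 31.5 FPKM in RCdM5. The gene was thus close to silent on day 1 and on day 0 (0.0883, 0.0 and 0.377 FPKM), and every day 5 library was well above. Its log2 change was 3.23 ± 0.38 (SE, adjusted p = 0.0054). Over the alternatives its adjusted p ranged from 0.0005 to 0.094, and it kept its call in all but 2 of them.

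A further metal ion transmembrane transporter gene, Lsat_1_v5_gn_8_106761, held 0.0, 1.01 and 0.0 FPKM in RCdM0, 4.03, 4.85 and 7.89 in RCdM1 and 29.1, 24.7 and 42.8 in RCdM5. It stepped up at each sampling without overlap between days. The log2 change from day 1 to day 5 was 2.34 ± 0.37 (SE, adjusted p = 0.022), and the call was lost in 6 of 12 alternatives, with an adjusted p of up to 0.24. The third gene, Lsat_1_v5_gn_8_7341, is annotated for transport of monovalent cations and metal ions. It went from 8.77, 4.72 and 13.8 FPKM to 48.5, 31.5 and 84.9 FPKM, a log2 change of 2.46 ± 0.48 (SE, adjusted p = 0.034). Its call was lost in 8 of 12 alternatives, with an adjusted p of up to 0.39, and without RCdM5 replicate 3 the change was 2.09 (adjusted p = 0.14). The tables do not say which ion any of these 3 genes carries. None of the 10 tested transition metal transport genes passed, their median was -0.21 and 3 of them were above 0. None of 12 potassium transport genes passed either, with a median of 0.31 and 11 above 0.

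Genes with binding terms went both ways. Of 87 tested genes with the term metal ion binding 3 rose and 1 fell, with a median change of 0.27, and of 82 with the term cation binding 3 rose and 1 fell. Of 53 genes that the study lists under the broader term ion binding none rose and 5 fell, with a median of -0.16. A gene counts under a term only where the study lists it there. Genes that rose under metal ion or cation binding also bind ions but are not counted under the broader term. The lack of rises there is thus a matter of listing. These counts were made after the values were seen, and the terms overlap. They too cover only genes that the study had called in some comparison, not all genes with such a function. Lsat_1_v5_gn_5_16880, annotated for metal ion binding, held 189.0, 218.0 and 185.0 FPKM in RCdM1 and 113.0, 86.3 and 61.6 FPKM in RCdM5. The RCdM0 libraries held 215.0, 180.0 and 217.0 FPKM, so day 0 and day 1 lay together and day 5 lay below both. The log2 change from day 1 was -1.21 ± 0.19 (SE, adjusted p = 0.02), and -0.99 without RCdM5 replicate 3 (adjusted p = 0.061). Lsat_1_v5_gn_8_102821, annotated for cellular iron homeostasis, fell from 40.6, 65.0 and 59.5 FPKM to 25.8, 28.2 and 20.5 FPKM, a log2 change of -1.1 ± 0.2 (SE, adjusted p = 0.029, and 0.12 without RCdM5 replicate 3). Genes of iron homeostasis store, chaperone or buffer iron and keep it from reacting with peroxide. A further 3 genes with the broad term ion binding fell from lower levels. Novelgene2327 went from 10.2, 9.23 and 13.7 FPKM to 4.36, 3.8 and 1.44 FPKM, with a log2 change of -1.58 (adjusted p = 0.035). Its call was lost in 8 of 12 alternatives. Lsat_1_v5_gn_8_57381 went from 4.3, 3.25 and 1.33 FPKM to 0.0, 0.281 and 0.0 FPKM (-1.78, adjusted p = 0.047), a call lost in 9 of 12 alternatives. Lsat_1_v5_gn_4_64800 went from 1.21, 1.37 and 2.13 FPKM to 0.0, 0.125 and 0.147 FPKM (-1.22, adjusted p = 0.022), so both were close to 0 on day 5. Among the genes with binding terms that rose, Lsat_1_v5_gn_5_168420 (cation binding) went from 70.0, 75.5 and 74.6 FPKM to 277.0, 231.0 and 198.0 FPKM, a log2 change of 1.66 (adjusted p = 0.047). Its call was lost in 10 of 12 alternatives, with an adjusted p of up to 0.36. The 3 genes with the term metal ion binding that rose were Lsat_1_v5_gn_6_79980 (2.72, adjusted p = 0.022), which is also annotated for nucleoside metabolism, Lsat_1_v5_gn_2_71421 (1.44, adjusted p = 0.022), which also has the term iron ion binding, and Lsat_1_v5_gn_3_68860 (1.22, adjusted p = 0.027).

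As a group, the peroxidase genes had a median change well above that of all genes. The study had called 4 of the listed genes in this same comparison. All 18 tested genes with peroxidase activity had a change above 0, 3 of them rose, none fell, and 9 were higher at an unadjusted p under 0.05. The median was 0.90. The most abundant of the genes that rose was Lsat_1_v5_gn_5_175381, at 226.0, 167.0 and 185.0 FPKM in RCdM1 and 744.0, 508.0 and 1377 FPKM in RCdM5. Means were 193.0 and 876.0 FPKM, and the lowest day 5 library was far above the highest day 1 library. The log2 change was 2.07 ± 0.28 (SE, adjusted p = 0.012). Lsat_1_v5_gn_8_13440 went from 74.4, 79.1 and 79.0 FPKM to 343.0, 254.0 and 774.0 FPKM, 2.38 ± 0.46 (SE, adjusted p = 0.032). The day 1 libraries lay close together and replicate 3 was the highest on day 5 in both genes. Without that library the former changed by 1.68 (adjusted p = 0.02) and the latter by 1.92 (adjusted p = 0.13). The third, Lsat_1_v5_gn_5_150900, was lower throughout, at 1.91, 1.86 and 2.05 FPKM on day 1 and 4.5, 4.94 and 7.42 FPKM on day 5, with a log2 change of 1.15 (adjusted p = 0.047). It was named after its values were seen, to complete the count, and its call was lost in 11 of 12 alternatives, with an adjusted p of up to 0.39. Lsat_1_v5_gn_3_102601, at 2.34, 5.45 and 2.38 FPKM on day 1 and 10.1, 15.3 and 21.9 FPKM on day 5, missed the threshold (log2 change 1.94, adjusted p = 0.051).

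The mean log2(FPKM + 1) level of the 18 peroxidase genes was 4.27, 4.28 and 3.6 in the RCdM1 libraries and 4.9, 4.8 and 5.5 in RCdM5. Replicate 3 was the lowest of the day 1 libraries and the highest of the day 5 libraries. Leaving out 1 library at a time left 0 to 2 of the genes called and a median change of 0.69 to 1.02. Of the 17 tested genes listed under response to oxidative stress, 16 are in the peroxidase list, and the same 3 genes were called in it. The 47 tested phenylpropanoid biosynthesis genes share 16 with the peroxidase list. Of them 3 rose, 36 were above 0 and the median was 0.29. These lists, like all lists here, hold genes that the study had called in some comparison of these same libraries. Their counts are therefore not independent evidence of a direction. Where that comparison was RCdM1 to RCdM5 itself, the direction of those members was set by the choice, as for 4 of the phenylpropanoid genes.

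The laccase gene Lsat_1_v5_gn_2_125601 held 2.43, 2.87 and 2.71 FPKM in RCdM1 and 6.94, 11.2 and 33.1 FPKM in RCdM5. The day 1 libraries lay within the range of day 0 (2.92, 2.54 and 3.38 FPKM) or just below it, and replicate 3 stood far above the other day 5 libraries. The log2 change was 2.02 ± 0.41 (SE, adjusted p = 0.041), and over the alternatives the adjusted p ranged from 0.032 to 0.42. Without RCdM5 replicate 3 the change was 1.42 (adjusted p = 0.11). It was the single called gene among 31 tested copper ion binding genes, whose median was 0.11 with 16 above 0. The other 5 laccases that the study names did not pass. Their log2 changes were 0.35 for Lsat_1_v5_gn_8_12380, -0.2 for Lsat_1_v5_gn_8_71281, -0.84 for Lsat_1_v5_gn_3_76141, -0.7 for Lsat_1_v5_gn_9_24581 and -1.24 for Lsat_1_v5_gn_9_36021. The rest of the redox genes that rose were Lsat_1_v5_gn_8_71141, annotated for oxidation-reduction, and Lsat_1_v5_gn_8_35741, an aldehyde oxidoreductase. The former went from 6.82, 6.92 and 6.54 FPKM to 20.1, 34.4 and 91.1 FPKM (log2 change 2.4, adjusted p = 0.041) and the latter from 18.8, 15.6 and 14.8 FPKM to 50.0, 42.8 and 69.7 FPKM (1.64, adjusted p = 0.022). The call of the former was lost in 9 of 12 alternatives.

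None of the 4 genes of superoxide metabolism, 2 of which the study had called in this comparison, passed as a gene, and 3 of them were lower at an unadjusted p under 0.05. The nearest was Lsat_1_v5_gn_6_10640, at 13.6, 18.5 and 13.5 FPKM in RCdM1 and 9.9, 8.72 and 6.55 FPKM in RCdM5, a log2 change of -0.79 (adjusted p = 0.058). The SOD1 copies are genes of the copper/zinc type of superoxide dismutase. Lsat_1_v5_gn_6_43340 held 18.7, 26.2 and 15.2 FPKM on day 1 and 14.6, 7.25 and 6.67 FPKM on day 5, without overlap, -1.04 (adjusted p = 0.099). Lsat_1_v5_gn_6_16060 held 63.5, 199.0 and 119.0 FPKM and then 43.2, 97.5 and 25.2 FPKM, which overlap (-1.25, adjusted p = 0.37). The copy Lsat_1_v5_gn_2_58341 had a change of 0.34 (adjusted p = 0.46), and Lsat_1_v5_gn_2_125000, the last gene of the list, one of 0.37.

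At the level of isoforms, the reference isoform of Lsat_1_v5_gn_6_43340 did pass. It held 15.6, 22.9 and 13.4 FPKM in RCdM1 and 6.54, 6.15 and 6.67 FPKM in RCdM5. The day 5 libraries lay close together, and the log2 change was -1.26 ± 0.19 (SE, adjusted p = 0.031 over 33069 isoforms). In RCdM5 replicate 1 other isoforms of the gene made up the difference between its 6.54 FPKM and the 14.6 FPKM of the gene. In roots without melatonin the same isoform went from 15.9, 16.7 and 18.1 FPKM to 5.65, 8.75 and 8.77 FPKM, a log2 change of -1.06 (adjusted p = 0.019). This isoform was chosen after its values were seen.

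The best described of the other genes that rose was Novelgene0790, whose closest named protein is Arabidopsis LTPG2, a lipid transfer protein anchored to the plasma membrane. Such proteins carry lipids toward the wall and cuticle in Arabidopsis. Its level was 31.8, 20.7 and 18.4 FPKM in RCdM1 and 182.0, 120.0 and 239.0 FPKM in RCdM5, against 41.9, 29.8 and 25.3 FPKM in RCdM0. Day 0 and day 1 overlapped, and day 5 lay far above both. The log2 change from day 1 was 2.86 ± 0.38 (SE, adjusted p = 0.012), and it ranged from 2.63 to 3.19 over the alternatives. The largest change of all was in Novelgene0037, without a term, at 8.24, 6.67 and 20.4 FPKM on day 1 and 174.0, 122.0 and 242.0 FPKM on day 5 (3.92 ± 0.6, SE, adjusted p = 0.02). It had held 0.583, 0.0 and 2.52 FPKM on day 0.

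Some of the genes that rose carry names or terms of regulation or of other metabolism. Novelgene0240, with Arabidopsis protein phosphatase 2C 25 as its closest named protein, removes phosphate from serine and threonine if it acts as that family does. It went from 4.32, 3.35 and 3.5 FPKM to 19.8, 22.0 and 7.74 FPKM, and here replicate 3 was the low day 5 library (log2 change 1.78, adjusted p = 0.029). Lsat_1_v5_gn_4_64461, annotated for regulation of transcription, held 48.4, 49.6 and 29.3 FPKM and then 236.0, 209.0 and 152.0 FPKM. Its RCdM0 libraries, at 182.0, 77.5 and 70.1 FPKM, lay above day 1 and overlapped with day 5. The log2 change was 2.22 ± 0.47 (SE, adjusted p = 0.047), but the call was lost in 11 of 12 alternatives, over which the adjusted p ran from 0.022 to 0.39. Lsat_1_v5_gn_4_142540, annotated for protein modification, went from 3.41, 0.937 and 1.12 FPKM to 12.7, 9.02 and 14.1 FPKM (2.28, adjusted p = 0.026). Lsat_1_v5_gn_6_79980, annotated for nucleoside metabolism and metal ion binding, went from 2.63, 1.17 and 3.24 FPKM to 23.7, 13.2 and 26.3 FPKM (2.72, adjusted p = 0.022). Lsat_1_v5_gn_6_9340, annotated only as a hydrolase, rose from a mean of 0.934 to 6.36 FPKM (1.74, adjusted p = 0.039). The remaining large rises have no term. Lsat_1_v5_gn_9_115461 went from 34.1, 38.3 and 43.4 FPKM to 117.0, 257.0 and 594.0 FPKM (2.73, adjusted p = 0.038), and Lsat_1_v5_gn_7_68660 from 13.8, 17 and 7.61 FPKM to 53.1, 66.5 and 178.0 FPKM (2.72, adjusted p = 0.022).

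RCdM5 replicate 3 was the highest day 5 library in 67 of the 103 genes that rose, against 36.3% of all tested genes. In 15 of the 103 it was over 2 times the higher of the other replicates, against 2.13% of all genes. Lsat_1_v5_gn_9_115461, Lsat_1_v5_gn_7_68660, Lsat_1_v5_gn_8_71141 and the laccase Lsat_1_v5_gn_2_125601 are of this kind. Without that library 11 genes passed. The log2 change of Lsat_1_v5_gn_9_115461 was then 2.14 (adjusted p = 0.13), that of Lsat_1_v5_gn_7_68660 2.2 (adjusted p = 0.088), that of Lsat_1_v5_gn_8_71141 1.82 (adjusted p = 0.14) and that of Novelgene0037 3.68 (adjusted p = 0.088). All 103 were then still higher on day 5, since the groups of each gene do not overlap.

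**Figure D2:**
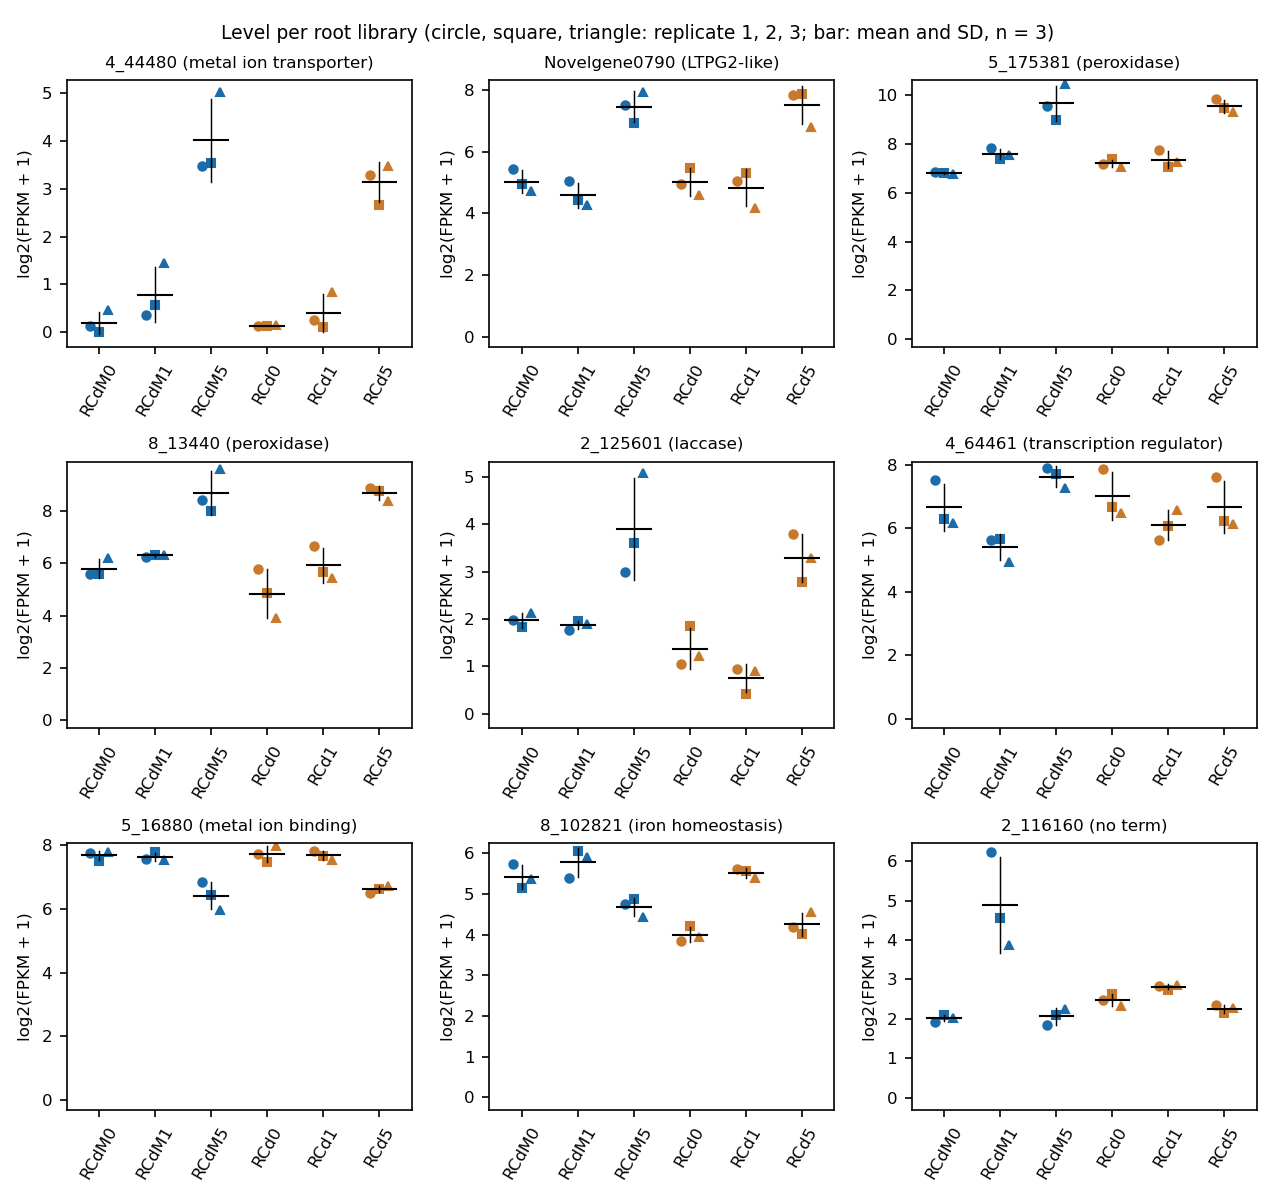
Level of 9 genes in each root library as log2(FPKM + 1) (vertical axis) by group (horizontal axis), blue with melatonin and orange without, with the mean and SD of n = 3 libraries and with the shared start of the identifiers left out. The metal ion transporter 4_44480 is near 0 on day 0 and day 1 and between 10.2 and 31.5 FPKM in RCdM5, and 2_116160 is high in RCdM1 alone.

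The largest fall was in Lsat_1_v5_gn_7_26981, for which the tables give the term cellular process alone. It held 40.6, 79.9 and 51.5 FPKM in RCdM0, 19.9, 37.6 and 42.6 FPKM in RCdM1 and 2.68, 2.94 and 0.317 FPKM in RCdM5. The log2 change from day 1 to day 5 was -3.62 ± 0.53 (SE, adjusted p = 0.016). Lsat_1_v5_gn_2_116160, without a term, showed another course. It was at 2.82, 3.31 and 3.07 FPKM on day 0, at 74.7, 22.7 and 13.6 FPKM on day 1 and at 2.57, 3.3 and 3.78 FPKM on day 5. Its fall (-2.83 ± 0.39, SE, adjusted p = 0.012) thus followed a high level on day 1 that differed widely between replicates. That level rests on 1 of its 2 isoforms, whose estimates are in doubt as described with the isoforms. The other isoform had a mean of 4.02 FPKM in RCdM1 and 3.21 FPKM in RCdM5. Lsat_1_v5_gn_9_85080 also had its highest levels with melatonin on day 1, at 10.2, 7.17 and 13.4 FPKM, and fell to 1.03, 2.07 and 3.3 FPKM (-1.87, adjusted p = 0.025). Lsat_1_v5_gn_2_9581, annotated to an intracellular organelle, fell from 75.3, 54.5 and 85.5 FPKM to 39.7, 30.1 and 34.6 FPKM (-1.01, adjusted p = 0.033). Its call was lost in 8 of 12 alternatives.

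The calcium-binding and extracellular matrix lists had medians above that of all genes, while no single member passed. The study had called 7 of the 13 calcium ion binding genes in this same comparison, which set their direction. The same holds for 5 of the extracellular matrix genes. All 13 calcium ion binding genes were above 0, with a median of 0.82, and 9 of them had an unadjusted p under 0.05. Their mean log2(FPKM + 1) level was 5.66, 5.65 and 5.51 in RCdM1 and 6.35, 6.49 and 6.36 in RCdM5, without overlap and with little spread, and leaving out 1 library at a time kept the median change between 0.71 and 0.86. Calcium-binding proteins sense and relay changes of free calcium. The member nearest to the threshold was Lsat_1_v5_gn_1_114380, at 56.6, 43.8 and 61.9 FPKM on day 1 and 121.0, 104.0 and 260.0 FPKM on day 5 (log2 change 1.45, adjusted p = 0.058). Lsat_1_v5_gn_4_185301 had the largest change, from 3.11, 3.6 and 3.19 FPKM to 18.3, 20.6 and 8.52 FPKM (1.88, adjusted p = 0.15). The extracellular matrix list holds 23 tested genes, 9 of them shared with the calcium list. Of these 23 genes, 19 were above 0, the median was 0.40 and 9 had an unadjusted p under 0.05. In RCd5 against RCd1 the medians were 0.11 for calcium binding and -0.36 for extracellular matrix, where 2 genes fell (1.13% of all tested genes did). The difference between the melatonin and the cadmium-alone change had an unadjusted p under 0.05 for 3 of the 13 and 8 of the 23 genes. Over all tested genes the share was 13.1%. No gene had an adjusted p under 0.05. Both lists draw on comparisons that include RCd1 or RCdM1, so these counts are not independent evidence of a melatonin difference.

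Cell wall genes had medians below 0 with melatonin and above 0 without, and none of them passed with melatonin. The lists of these genes draw on comparisons that include RCd1 or RCdM1, the groups subtracted here. Members chosen for a low RCd1 level or a high RCdM1 level would favour medians of these signs. The opposite medians and the counts below are therefore not independent evidence of a melatonin difference. Xyloglucosyl transferases cut and rejoin xyloglucan chains when walls extend, pectinesterases remove methyl groups from pectin, and cellulose synthases spin out cellulose at the plasma membrane. From RCdM1 to RCdM5 the median change was -0.44 for 9 xyloglucosyl transferase genes, -0.55 for 10 pectinesterase genes, -0.14 for 14 cellulose synthase genes and -0.53 for 9 chitinase genes. From RCd1 to RCd5 the medians of the same lists were 1.01, 0.60, 0.60 and 0.45. There 1 xyloglucosyl transferase, 2 cellulose synthase and 1 chitinase gene rose, against 1.42% of all tested genes, and without RCd5 replicate 3 the chitinase median was -0.06. The difference between the changes had an unadjusted p under 0.05 for 4, 4, 7 and 1 of these genes, against 13.1% of all tested genes. None passed after adjustment.

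The mean log2(FPKM + 1) level of the xyloglucosyl transferase list was 5.59, 5.6 and 6.11 in RCdM1 and 5.67, 5.99 and 4.56 in RCdM5. Replicates 1 and 2 of day 5 lay within the range of day 1, and replicate 3 lay below it. Without RCdM5 replicate 3 the median change was -0.06 for this list, -0.3 for pectinesterases, -0.01 for cellulose synthases and -0.21 for chitinases. In RCd1 the level was 4.23, 3.76 and 3.84 and in RCd5 it was 4.45, 4.84 and 5.62, so there replicate 3 was the highest. Pectinesterase genes showed the same order, with 6.38, 6.53 and 6.98 in RCdM1, 6.15, 6.88 and 5.68 in RCdM5, and 5.67, 5.8 and 6.68 in RCd5. Of single genes, the xyloglucosyl transferase Lsat_1_v5_gn_4_22721 held 463.0, 571.0 and 550.0 FPKM in RCdM1 and 226.0, 398.0 and 99.6 FPKM in RCdM5 (log2 change -1.33, adjusted p = 0.37). In roots without melatonin it held 90.5, 47.1 and 43.2 FPKM and then 131.0, 120.0 and 473.0 FPKM (1.76, adjusted p = 0.15). The groups did not overlap in either pair and the changes had opposite signs, but the limma adjusted p of their difference was 0.32. The choice of list members described above could favour these signs too. Lsat_1_v5_gn_3_33121, of the same family, held 562.0, 962.0 and 1145 FPKM in RCdM1 and 405.0, 704.0 and 96.9 FPKM in RCdM5, which overlap (-1.49, adjusted p = 0.4).

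The hormone signalling list had a median below 0, again without a call. The study had called 8 of the listed genes in this same comparison, which set their direction. Of 38 tested genes, 7 were above 0, the median was -0.41, and 12 were lower and 2 higher at an unadjusted p under 0.05. The mean level was 5.06, 5.13 and 5.34 in RCdM1 and 4.84, 4.98 and 4.4 in RCdM5, without overlap and lowest in replicate 3. Without RCdM5 replicate 3 the median was -0.29 and 10 genes were above 0. The largest change was in Lsat_1_v5_gn_5_111580, at 347.0, 382.0 and 756.0 FPKM on day 1 and 116.0, 244.0 and 30.3 FPKM on day 5 (log2 change -2.27, adjusted p = 0.43). Lsat_1_v5_gn_3_45581 held 6.59, 8.38 and 8.12 FPKM and then 3.21, 3.44 and 0.874 FPKM (-1.4, adjusted p = 0.26). Of 11 nitrogen metabolism genes, 10 were above 0, with a median of 0.50. The nearest to the threshold was Lsat_1_v5_gn_4_5700, from 52.7, 78.2 and 80.5 FPKM to 137.0, 112.0 and 171.0 FPKM (0.98, adjusted p = 0.079). In roots without melatonin 4 of the 11 rose, against 1.42% of all tested genes, this gene among them (1.6, adjusted p = 0.0053). The mean log2(FPKM + 1) level of the 11 there was 7.15 to 7.67 on day 0 and 5.43 to 5.99 on day 1. The study chose the listed genes in these libraries, and members chosen for that fall would favour a later rise. In 29 genes with antioxidant activity the median was 0.33 and none passed. Of 35 lists examined in all, 6 held a called gene, namely metal ion transport, copper ion binding, peroxidase activity, response to oxidative stress, phenylpropanoid biosynthesis and phenylalanine metabolism.

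**Figure D3:**
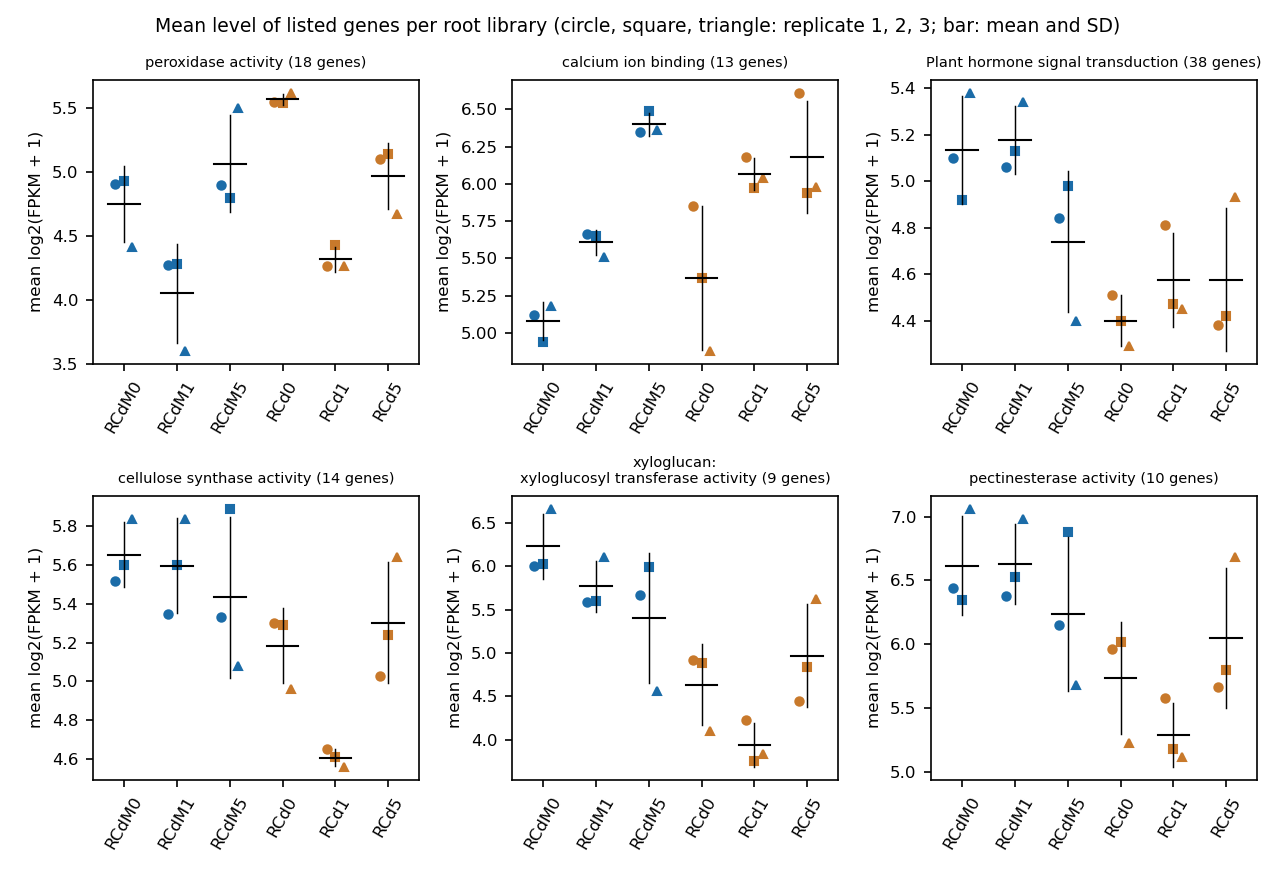
Mean log2(FPKM + 1) level of the tested genes of 6 lists (vertical axis, ranges differ between panels and do not start at 0) in each root library by group (horizontal axis), blue with melatonin and orange without, with the mean and SD of 3 libraries. Calcium ion binding genes go from 5.51 to 5.66 in RCdM1 to 6.35 to 6.49 in RCdM5, and RCdM5 replicate 3 (triangle) lies below the other day 5 libraries in the hormone and the 3 wall panels.

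Of 22 genes that the study names by identifier, 21 were tested in roots, and 1, the laccase above, passed. The changes of the other 20 ran from -1.25 to 0.35, with a smallest adjusted p of 0.099. Among them were the ascorbate peroxidase-like Novelgene1716 (-0.31), the thioredoxin genes Lsat_1_v5_gn_5_4600 (-0.32) and Lsat_1_v5_gn_7_18261 (-0.08), the lipoxygenase Lsat_1_v5_gn_5_148821 (-0.24), the ABA-responsive factor gene Lsat_1_v5_gn_1_21140 (-0.28) and the JAR1-like Lsat_1_v5_gn_4_34281 (-0.01). JAR1 joins jasmonic acid to isoleucine in Arabidopsis.

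Roots without melatonin give a view of the same days from other libraries, since RCd1 and RCd5 share no library with RCdM1 and RCdM5. Both changes came from 1 fit with a shared spread per gene, so their calls are not fully independent. The labels of the day 5 replicate 3 libraries, on which this view rests, were not tested. There 440 genes passed (2.55%), 245 higher and 195 lower on day 5. Of the 103 genes that rose with melatonin, 98 had a change above 0 without it (49.8% of all tested genes did), 36 were called higher (1.42% of all) and none was called lower. In 65 of them the RCd groups did not overlap in that direction (12% of all). Each of the 18 genes that fell with melatonin had a change below 0 without it (50.1% of all), 7 were called lower (1.13% of all) and 14 did not overlap (12.9% of all). The 43 genes called in the same direction in both make up 35.5% of the calls with melatonin and 9.77% of those without.

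The sizes differed between the sets. For the 121 genes called with melatonin, the median absolute change was 1.54 with it and 0.77 without (median SE 0.29 each). For the 440 called without melatonin it was 1.09 without and 0.36 with it (median SE 0.22 each), and 361 of them had the same sign with melatonin. Each set was chosen on its own larger change, so these medians are a description. Over all genes the r between the changes was 0.14, and 52.2% had the same sign. The metal transporter Lsat_1_v5_gn_4_44480 went from 0.193, 0.0815 and 0.803 FPKM in RCd1 to 8.76, 5.32 and 10.1 FPKM in RCd5 (log2 change 2.73, adjusted p = 0.0052). The peroxidase Lsat_1_v5_gn_5_175381 went from 215.0, 131.0 and 153.0 FPKM to 913.0, 705.0 and 623.0 FPKM (2.17, adjusted p = 0.0039), and Novelgene0790 changed by 2.66 (adjusted p = 0.0052). The metal-binding Lsat_1_v5_gn_5_16880 fell by 1.06 (adjusted p = 0.011) and the iron homeostasis gene Lsat_1_v5_gn_8_102821 by 1.27 (adjusted p = 0.0075).

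The difference between the change with melatonin and the change without it was tested directly. None of 17227 genes passed at an adjusted p under 0.05 in limma, while 2265 (13.1%) had an unadjusted p under 0.05. The spread in this test includes replicate 3 of RCdM5 and of RCd5, which stood apart in opposite directions in some lists. Leaving out either of these libraries alone, 0 genes passed. Among the 103 genes that rose, the smallest adjusted p was 0.277, and among the 18 that fell 0.278. These genes were called on a contrast that is part of this difference. Among named genes called with melatonin, the widest gaps were in Lsat_1_v5_gn_2_116160, Lsat_1_v5_gn_4_64461, Lsat_1_v5_gn_8_57381 and Lsat_1_v5_gn_4_142540. The first held 6.16, 5.67 and 6.26 FPKM in RCd1 and 4.11, 3.43 and 3.86 FPKM in RCd5, a change of -0.55 against -2.83 with melatonin (difference -2.28, adjusted p = 0.28), and it rests on the isoform of doubtful estimate. The transcription regulator Lsat_1_v5_gn_4_64461 changed by 0.57 without melatonin against 2.22 with it (difference 1.65, adjusted p = 0.36). Lsat_1_v5_gn_8_57381 changed by -0.21 against -1.78 (difference -1.57, adjusted p = 0.32), and Lsat_1_v5_gn_4_142540 by 0.73 against 2.28 (difference 1.55, adjusted p = 0.34). A p that misses the threshold does not show that the changes were equal.

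**Figure D4:**
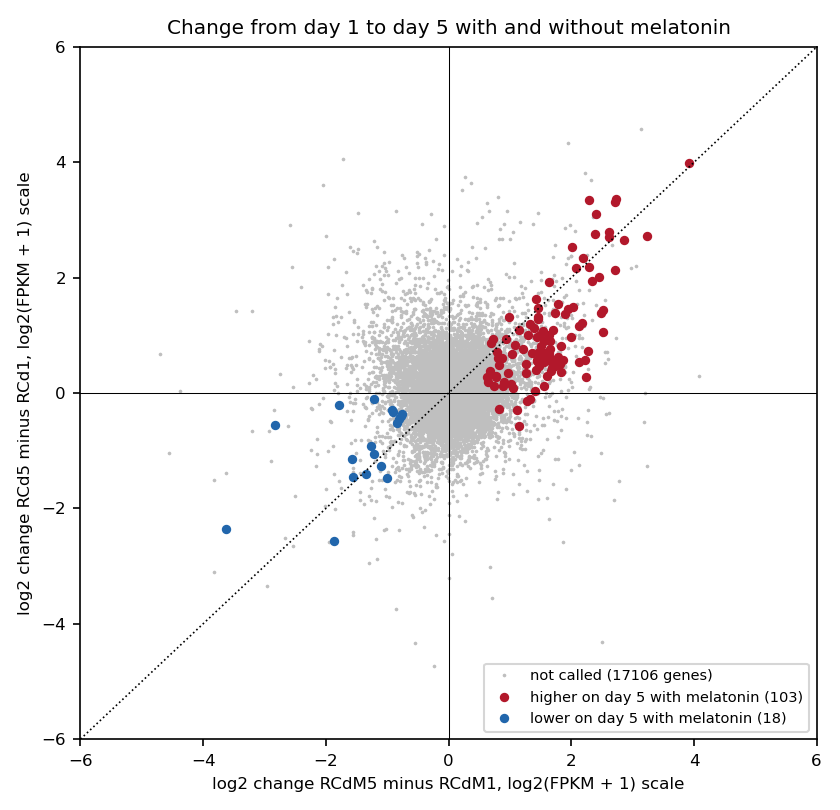
Change of each tested gene from day 1 to day 5 on the log2(FPKM + 1) scale with melatonin (horizontal axis) and without it (vertical axis), with the dotted line marking equal changes. Of the 103 genes higher with melatonin (red) 98 lie above 0 on the vertical axis, and all 18 lower ones (blue) lie below 0.

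Day 0 was compared in the same fit, with RCdM1 or RCdM5 shared with the comparison above. From RCdM0 to RCdM1 209 genes passed (1.21%), 64 higher (0.372%) and 145 lower (0.842%), and from RCdM0 to RCdM5 530 (3.08%), 351 higher (2.04%) and 179 lower (1.04%). The median change of the 103 genes that rose was -0.1 from day 0 to day 1 and 1.32 from day 0 to day 5. That of the 18 that fell was 0.36 and -0.71. Among named genes, Lsat_1_v5_gn_8_106761 (adjusted p = 0.0089) and Novelgene0037 (adjusted p = 0.046) were already higher on day 1 than on day 0, and Lsat_1_v5_gn_7_66720 was lower (adjusted p = 0.00081). Lsat_1_v5_gn_2_116160 (adjusted p = 0.004) and Lsat_1_v5_gn_9_85080 (adjusted p = 0.02) were higher on day 1 than on day 0 and fell afterwards.

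In melatonin-pretreated leaves 2052 of 16800 genes passed from day 1 to day 5 (12.2%), 643 higher (3.83%) and 1409 lower (8.39%). Of the 103 genes that rose in roots, 86 were tested in leaves. There 52 of the 86 were above 0, against 46.7% of all leaf genes, 4 were called higher and 4 lower. Of the 18 that fell in roots, 17 were tested in leaves, 10 were below 0 (53.2% of all leaf genes), 1 was called lower and 1 higher. The root change minus the leaf change, which uses the same root libraries, passed for 1122 of 18056 genes (6.21%), above 0 in 756 (4.19%) and below 0 in 366 (2.03%). It passed for 45 of the 103 genes and 6 of the 18. These genes were called on the root change, which is part of this contrast, and the 103 include genes too low in leaves to be tested there. The counts are therefore not independent evidence of a difference between tissues. The peroxidase Lsat_1_v5_gn_5_175381 had a leaf change of -0.38 (adjusted p = 0.7) and a difference of 2.45 (adjusted p = 0.021). For the transporter Lsat_1_v5_gn_8_7341 the leaf change was -0.19 and the difference 2.65 (adjusted p = 0.0051). The iron homeostasis gene Lsat_1_v5_gn_8_102821 fell in both tissues, in leaves by 1.74 (adjusted p = 0.031), with a difference of 0.64 (adjusted p = 0.53).

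Of the 121 called genes, 66 have 1 isoform. In 48 of the 55 others the most abundant isoform was the same on both days, and it made up a median of 73.7% of the RCdM5 level. Tested on their own, 86 of 33069 isoforms passed, 69 higher and 17 lower, from 76 genes of which 62 were called as genes. The difference between the changes with and without melatonin, in which no gene passed, did pass for 6 isoforms, which are described here after their values were seen. Isoform Lsat_1_v5_gn_2_118741_novel10 held 6.82, 3.74 and 5.43 FPKM in RCdM1 and 12.3, 17.6 and 14.3 FPKM in RCdM5. Without melatonin it held 33.9, 33.2 and 33.0 FPKM in RCd1 and 18.4, 12 and 14.7 FPKM in RCd5. It thus rose with melatonin (log2 change 1.33, adjusted p = 0.047) and fell without (-1.12, adjusted p = 0.044), and the difference was 2.45 ± 0.34 (SE, adjusted p = 0.032). The levels on day 5 overlapped, and those of day 1 did not.

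The isoform Lsat_1_v5_gn_2_116160_novel01 carries the course of its gene. It held 70.7, 18.6 and 9.76 FPKM in RCdM1 and is listed at 0 in the other 15 root libraries. In leaves it is listed at 106.0, 126.0 and 97.5 FPKM in LCdM0 and at 212.0, 0.0 and 90.4 FPKM in LCd1, but at 0 in 2 of 3 LCdM1 libraries. Values of 0 beside values of this size within a group can be failed estimates of an isoform share, so no fold is given for the isoform, and the change of its gene carries the same doubt. Isoform Lsat_1_v5_gn_6_101780_novel02 behaved in a similar way. It held 0.91, 2.92 and 33.8 FPKM in RCdM1, 107.0, 16.8 and 87.7 FPKM in RCdM5 and 28.7, 94.1 and 56.4 FPKM in RCd1, and is listed at 0 in all RCd5 libraries.

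**Figure D5:**
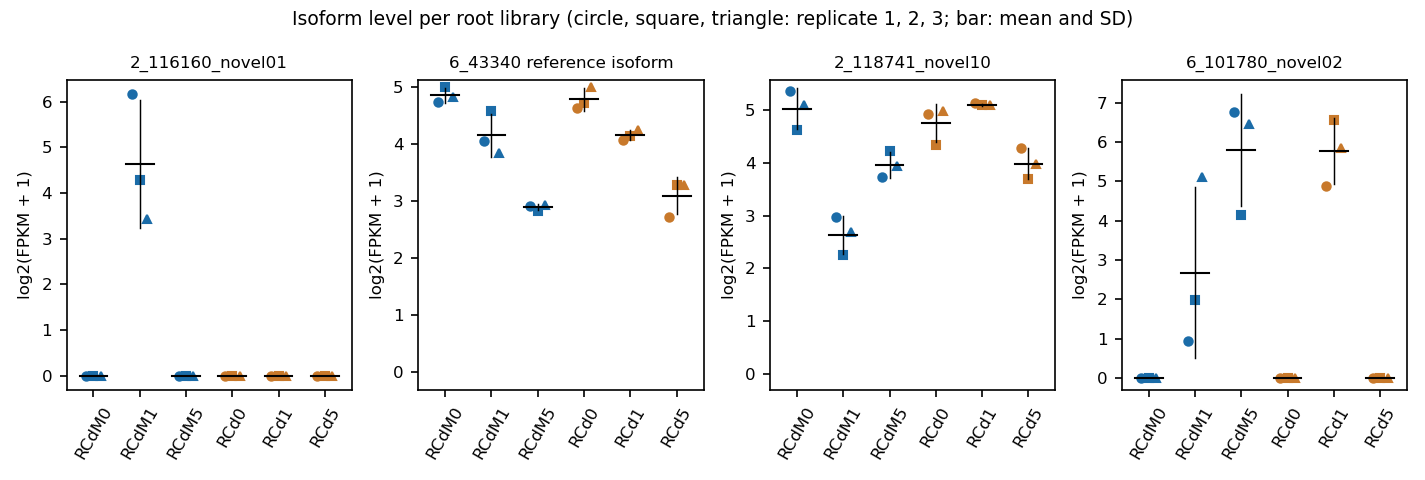
Level of 4 isoforms as log2(FPKM + 1) (vertical axis) in each root library by group (horizontal axis), blue with melatonin and orange without, with the mean and SD of 3 libraries. The reference isoform of 6_43340 is lower in RCdM5 than in RCdM1 and in RCd5 than in RCd1, and 2_116160_novel01 is above 0 in RCdM1 alone.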

How the data were processed

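Levels were measured by RNA-seq in 36 libraries, 12 groups of 3, of which the 18 root libraries entered the main fit. The authors deposited FPKM values for each isoform. The study aligned clean reads to its long-read transcriptome with TopHat2 2.0.12, and the submitters' processing notes name Bowtie2 2.0.6. The methods describe FPKM per gene from read counts, and which tool gave the isoform values is not stated in the text read here. A median of 1182.5 values per library lay above 0 and under 0.001, so they are estimates. Depth cannot be read from them, and the spread between libraries stands for the precision. Such estimates can divide reads between related isoforms and gene copies.

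Isoform values were summed to 19584 genes. A gene entered a fit if 3 or more of its libraries held 1 FPKM or more, giving 17227 in roots, 16800 in leaves and 18056 in both. Values were tested as log2(FPKM + 1), a scale that understates changes of low genes, with limma 3.58.1 in R 4.3.3 (1 mean per group, eBayes with a trend). Every adjusted p is limma's with Benjamini-Hochberg adjustment over all features of the fit, two-sided, and a gene was called under 0.05. SE is the moderated standard error. The study's count test was not used because no counts were analysed. The script was tested on simulated data. Python 3.11.15, pandas 2.3.3, numpy 2.4.6 and matplotlib 3.10.9 were used for tables and figures.

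Names, terms and lists came from the study's tables, of which 970 of 1480 cells with identifiers were complete. No identifier matched the RefSeq gene table, so no sequence or position is given. Named genes are the 15 largest rises and 10 largest falls with a name or term, the 3 and 2 largest without, up to 4 members of each of 16 lists, all superoxide genes and those the study names. Members, lists and this rule were chosen with earlier results of these data known. Alternatives were a pseudocount of 0.1, no filter, median-ratio scaling, isoforms as listed, Q30 as a covariate, the compared groups alone, a replicate block and each library left out.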

Additional observations from a re-analysis of the deposited data

Results flagged for a closer look

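For 24 named genes the change from day 1 to day 5 in melatonin-pretreated roots differed from that in leaves by a test of the difference in the fit of all 36 libraries. The root change minus the leaf change, on the log2(FPKM + 1) scale, was 3.7 for Lsat_1_v5_gn_7_68660, 3.35 for Lsat_1_v5_gn_5_6741, 3.15 for Novelgene0037, 3.04 for Lsat_1_v5_gn_9_115461, 2.93 for Lsat_1_v5_gn_6_9340, 2.9 for Novelgene0790, 2.68 for Lsat_1_v5_gn_6_79980, 2.65 for Lsat_1_v5_gn_8_7341 and 2.61 for Lsat_1_v5_gn_4_28800. It was 2.45 for Lsat_1_v5_gn_5_175381, 2.36 for Lsat_1_v5_gn_8_71141, 2.22 for Lsat_1_v5_gn_4_142540, 1.94 for Lsat_1_v5_gn_3_102601, 1.93 for Lsat_1_v5_gn_2_125601, 1.9 for Lsat_1_v5_gn_4_5700, 1.8 for Lsat_1_v5_gn_8_129240, 1.56 for Lsat_1_v5_gn_5_77601, 1.51 for Lsat_1_v5_gn_8_35741 and 1.21 for Lsat_1_v5_gn_5_150900. Below 0 were Novelgene2327 at -2.46, Lsat_1_v5_gn_8_57381 at -2.23, Lsat_1_v5_gn_9_85080 at -1.64, Lsat_1_v5_gn_5_16880 at -1.34 and Lsat_1_v5_gn_1_21140 at -1.17. Of these, Lsat_1_v5_gn_5_6741 and Lsat_1_v5_gn_4_28800 are antenna protein genes, which were not called in roots. The test reuses the root libraries on which the called genes among them were chosen. Some are at or near 0 in leaves, so their difference is little more than the root change. Lsat_1_v5_gn_3_102601 held 0.0 FPKM in every LCdM1 and LCdM5 library. The means in LCdM1 and LCdM5 were 0.0 and 0.065 FPKM for Lsat_1_v5_gn_2_125601 and 0.0 and 0.0389 FPKM for Lsat_1_v5_gn_4_142540.

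The xyloglucosyl transferase Lsat_1_v5_gn_4_22721 was lower on day 5 in every RCdM5 library and higher in every RCd5 library, with a difference of -3.09 between the changes (limma adjusted p = 0.32, not passed). Its list draws on comparisons that include RCd1 or RCdM1, which could favour these signs. The difference between the changes with and without melatonin passed for 6 isoforms. The adjusted p was 0.032 for Lsat_1_v5_gn_1_55341_novel04, Lsat_1_v5_gn_2_106540_novel02, Lsat_1_v5_gn_2_116160_novel01, Lsat_1_v5_gn_2_118741_novel10 and Lsat_1_v5_gn_6_101780_novel02, and 0.037 for Lsat_1_v5_gn_5_130141_novel01. In 4 of them a group of the contrast is listed at or near 0, which can be a failed estimate. These are Lsat_1_v5_gn_2_106540_novel02 and Lsat_1_v5_gn_6_101780_novel02 in RCd5, Lsat_1_v5_gn_5_130141_novel01 in RCd1, and Lsat_1_v5_gn_2_116160_novel01 in RCd1, RCd5 and RCdM5.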

How the results depend on the processing

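For RCdM5 minus RCdM1 the count of 121 genes (103 higher, 18 lower) was 82 with a pseudocount of 0.1, 92 with no filter, 106 (85 higher, 21 lower) with library scaling and 86 isoforms with isoforms as listed. It was 1 with Q30 as a covariate, 4 with the compared groups alone and 5 to 88 with 1 library left out. With Q30 as a covariate the other root comparisons gave 3 genes for RCd5 minus RCd1, 13 for RCdM1 minus RCdM0 and 0 for RCdM5 minus RCdM0, where 1134 had an unadjusted p under 0.05 in limma. LCdM5 minus LCdM1 gave 1879 genes with it and the root change minus the leaf change 845. With the compared groups alone they gave 25, 39 and 140, 137 for LCdM5 minus LCdM1 and 374 for the root change minus the leaf change. With 1 library left out the ranges were 116 to 258, 44 to 138, 217 to 558, 645 to 2428 and 576 to 1593 in the same order. The difference between the changes with and without melatonin passed for 0 to 1 gene with 1 library left out and for 6 isoforms. Library scaling gave 807 higher and 1144 lower genes in leaves, against 643 and 1409, and 96 higher and 124 lower for RCdM1 minus RCdM0, against 64 and 145. It moved the median of all genes from 0.03 to -0.01.

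The replicate number as a block gave 164 genes for RCdM5 minus RCdM1, 320 for RCd5 minus RCd1, 0 for their difference, 183 and 552 for the comparisons with day 0, 1954 in leaves and 1149 for root minus leaf. Deviations of same-numbered RCdM1 and RCdM5 libraries correlated at 0.029, 0.019 and -0.241, and those of other-numbered pairs at -0.276 to 0.247. With 3 libraries per group these values cannot decide whether the numbers pair the libraries. Of 29 named genes called, none changed direction, 28 missed the threshold with Q30 and 29 with the compared groups alone. The causes were not tested.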
